A study of Mus musculus with 19 samples.

Results

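Loss of CD5L was examined in obstructed kidneys of mice that received vehicle alone, by comparing 4 kidneys of CD5L KO mice given PBS with 5 kidneys of WT mice given PBS. These 9 kidneys were chosen by their genotype and treatment labels from the 19 kidneys of the series. The other 10 kidneys came from 5 CD5L KO and 5 WT mice that received recombinant CD5L protein (rCD5L) at 0.5 mg per mouse and injection, and were used only to look at the same genotype difference in other animals. All mice were males of 8 to 9 weeks on a C57BL/6J background, and all underwent unilateral ureteral obstruction (UUO), in which the left ureter is tied and cut so that urine backs up into the kidney. Injections into the abdominal cavity were given daily, and the whole left kidney was taken on day 12 after perfusion with heparin. Every kidney therefore carried the obstruction, and no unobstructed kidney entered the comparison. How the KO allele was made and whether WT mice were littermates are not given in the sources used here.

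CD5L, also called AIM, is a secreted protein of the scavenger receptor cysteine-rich family. Tissue macrophages are its main source, and it circulates in blood bound to IgM. In the injured kidney it is known to be filtered or released, to bind dead cells and debris in tubules, and to promote their removal. UUO is a model of fibrosis: stretched and injured tubules dedifferentiate, macrophages accumulate, and fibroblasts become contractile myofibroblasts that lay down collagen.

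Cd5l itself was rare in these whole-kidney libraries. It had 0 counts in all 4 CD5L KO kidneys, which allows a level of up to 0.132 to 0.157 CPM by counting error alone. That bound is 3 counts over the whole library total, without further scaling. The level of Cd5l in the WT kidneys was 0.589, 0.511, 0.289, 0.493 and 0.236 CPM. These and all other CPM are counts per 1000000 of a scaled library total. The scaled total is that of the genes that passed the filter on low counts, times a TMM scaling factor. The groups did not overlap and the labels were borne out, but Cd5l stayed below the filter on low counts and was not tested. Total counts ranged from 19066913 to 22732969 in CD5L KO and from 17917491 to 23165536 in WT kidneys. The share of counts on nuclear ribosomal RNA genes was 0.0698 to 0.314% in CD5L KO and 0.0298 to 0.0611% in WT kidneys, with no overlap, and replicate 1 of the CD5L KO group stood apart at the top. Genes of other tissues were present in part: Ckm of skeletal muscle had no count in 6 of the 9 kidneys and Lcn8 of the epididymis in 5, but Adipoq of fat was at 8.32 to 19.1 CPM in CD5L KO and 4.53 to 16.5 CPM in WT, Adam7 of the epididymis at 1.15 to 4.1 and 1.83 to 3.73 CPM, and Hbb-bs of red cells at 110 to 216 and 112 to 253 CPM. The summed adipocyte list was at 421 to 646 CPM in CD5L KO and 381 to 598 CPM in WT, and the summed epididymis list at 229 to 323 and 172 to 253 CPM. The groups overlapped in each, in Adipoq through replicate 1 of WT alone, and their part in any result was not tested. Nnt, which is deleted in part in C57BL/6J mice, was at 0.618 ± 0.279 CPM in CD5L KO (SD, n = 4) and 0.713 ± 0.164 CPM in WT (SD, n = 5), so that both groups carried the same low level. All proximal tubule, thick limb, podocyte, endothelial, fibroblast and macrophage markers examined were present in every kidney.

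Of 17579 genes tested, 1850 (10.5%) passed an adjusted p of 0.05 in edgeR's quasi-likelihood test. Of these, 901 were higher (5.13%) and 949 were lower (5.4%) in CD5L KO. The differences were small: the median size of the log2 fold change was 0.307 among the higher and 0.328 among the lower genes, and only 72 higher and 191 lower genes reached 0.5. Fold changes here are CD5L KO over WT on the log2 scale, and over all tested genes the median was -0.00464. In 2477 genes (14.1%) the 4 CD5L KO kidneys lay wholly to 1 side of the 5 WT kidneys. The number of calls depended on single kidneys, since it was 1038 without replicate 1 and 1215 without replicate 2 of CD5L KO, and 1121 without replicate 2 and 1015 without replicate 4 of WT. When the spread was estimated over all 19 kidneys, 12 genes passed and 2115 had an unadjusted p under 0.05. In that fit Frzb, Mcam, Vcl, Adamts9, Apbb2, Nbas, Rab3gap2, Trio, Atp2b4 and Zzef1 were lower and Eif3e and Dynlt1-ps1 were higher. In CD5L KO given rCD5L, replicate 3 stood apart by 0.607% of counts on nuclear ribosomal RNA genes and replicate 4 by 10.3% on the mitochondrial chromosome. Without these 2 kidneys the fit, over 17 kidneys, called 2291 genes, of which 1744 were among the 1850. That fit was added after the data were seen.

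**Figure D1:**
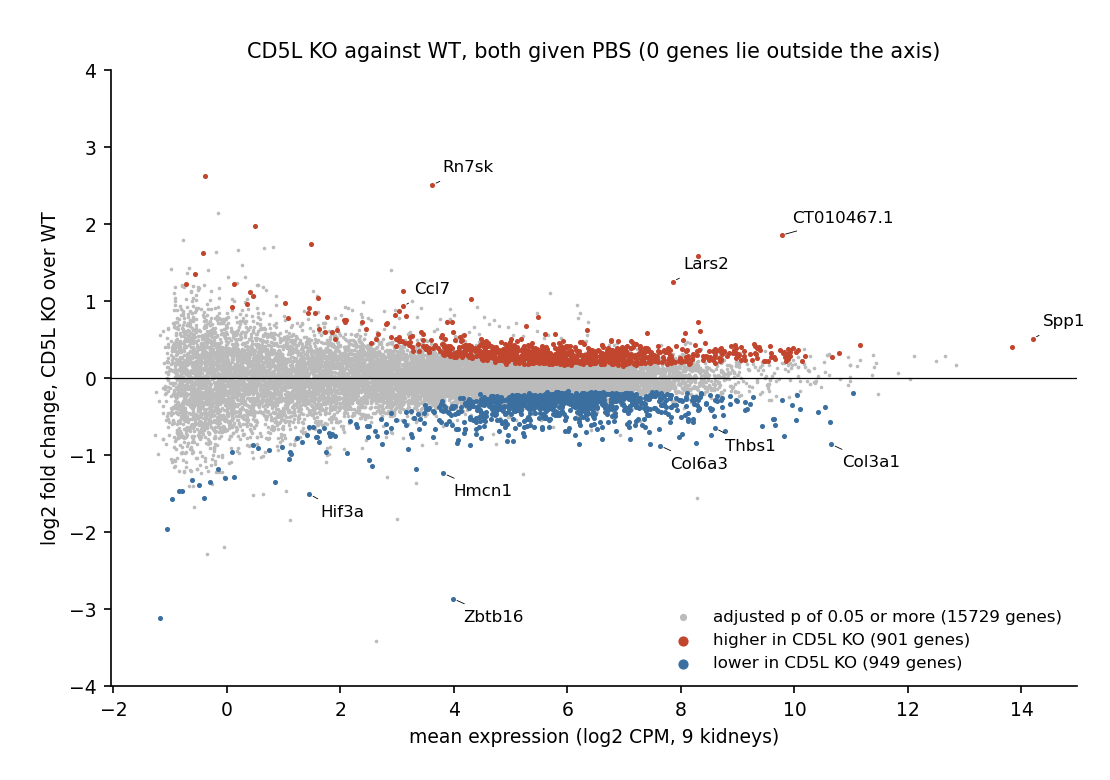
Log2 fold change of CD5L KO over WT (vertical axis) against mean log2 CPM (horizontal axis) for the 17579 genes tested in kidneys given PBS, with genes passing an adjusted p of 0.05 coloured by direction. The 901 higher and 949 lower genes lie mostly within 1 unit of 0, with Zbtb16 the lowest and Rn7sk the highest of the called genes whose mean log2 CPM reached 1.

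Genes of the extracellular matrix were lower in CD5L KO. None of the 40 collagen genes tested was called higher and 17 were called lower, with a median log2 fold change of -0.52. Collagen is the main protein of scar, and its fibrillar, network and beaded filament types were all among the genes that fell. Col3a1, a fibrillar collagen of early scar, was at 1166, 1286, 982 and 983 CPM in the 4 CD5L KO kidneys and at 1846, 2466, 1541, 2442 and 1712 CPM in the 5 WT kidneys. Every CD5L KO kidney lay below every WT kidney, and the log2 fold change was -0.86 (SE 0.145, adjusted p = 0.00643). Col1a1 and Col1a2, the chains of type I collagen, fell as well, by 0.61 (adjusted p = 0.0235) and 0.54 (adjusted p = 0.027) on the log2 scale. Col4a2, a chain of the basement membrane network, was at 615, 661, 655 and 620.4 CPM in CD5L KO and at 804, 936, 933, 1022 and 907 CPM in WT kidneys. It fell by 0.53 on the log2 scale (adjusted p = 0.0047) and its partner Col4a1 by 0.39 (adjusted p = 0.00643). Col5a1, which sets the width of collagen fibrils, fell by 0.79, Col6a3 of the beaded filaments by 0.88 and Col15a1 of the basement membrane zone by 0.55 on the log2 scale. Leaving out any 1 kidney left between 14 and 20 collagen genes called lower, but Col1a1 and Col1a2 lost the call in 4 and 5 of those 9 fits, with adjusted p up to 0.0654 and 0.0771.

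Matrix glycoproteins, proteoglycans and crosslinking enzymes showed the same direction, with 34 of 66 called lower, none called higher and a median log2 fold change of -0.34. Tnc, the matricellular protein tenascin C, was at 147, 146, 111 and 112 CPM in CD5L KO and at 184, 232, 192, 237 and 202 CPM in WT. On the log2 scale it fell by 0.70 (SE 0.108, adjusted p = 0.0053). The groups were apart for Tnc in all kidneys, as they were for Thbs1, an activator of latent TGF-beta (log2 fold change -0.65), and for Nid1, which links laminin to collagen IV (-0.56). Fn1, fibronectin, fell by 0.62 on the log2 scale (adjusted p = 0.0164), and Emilin1 of the elastic fibre surface fell by 0.47. Outside this list, Hmcn1, the giant matrix protein hemicentin 1, fell from 18.8 ± 5.35 CPM in WT (SD, n = 5) to 7.96 ± 2.62 CPM in CD5L KO (SD, n = 4), a log2 fold change of -1.23. Of 43 matrix proteases and their inhibitors, 12 were called lower and none higher. Among them, Adamts4, a proteoglycan-cutting protease, was at 13.2 ± 2.88 CPM in CD5L KO against 24.1 ± 6.18 CPM in WT (SD, n = 4 and 5). The protease count was less stable than that of the collagens: 4 genes were called lower without replicate 3 of CD5L KO and also without replicate 2 or replicate 4 of WT, 6 without replicate 4 and 7 without replicate 2 of CD5L KO.

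Genes of the cells that make the matrix were lower too. Of 49 fibroblast and myofibroblast genes, 12 were called lower and none higher (median log2 fold change -0.28). Pdgfra, the receptor that marks interstitial fibroblasts, was at 200.4, 196, 159.8 and 177 CPM in CD5L KO and at 274, 251, 259, 265 and 250.5 CPM in WT kidneys, so the groups did not overlap. It fell by 0.50 on the log2 scale (SE 0.0695, adjusted p = 0.0047), and Pdgfrb, shared by fibroblasts and pericytes, fell by 0.42 (adjusted p = 0.00677). Acta2, the smooth muscle actin of myofibroblasts, was at 246, 356, 231 and 249 CPM in CD5L KO and at 445, 484, 344, 586 and 400.0 CPM in WT kidneys. Acta2 fell by 0.74 on the log2 scale (adjusted p = 0.0128), although replicate 2 of CD5L KO lay above replicate 3 of WT. Itga8, an integrin of mesangial cells and myofibroblasts, had a log2 fold change of -0.71 and the values of 23.2 to 32.3 CPM in CD5L KO and 43.2 to 47.9 CPM in WT. In the curated marker sets with which the study annotated its single-cell data on obstructed kidneys, 17 of 23 myofibroblast markers and 26 of 61 fibroblast markers were called lower, and none was called higher. The collagen and fibroblast lists share genes with those markers, so they are not independent of the counts above. In bulk kidney, fewer cells of a type and less RNA per cell cannot be told apart.

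TGF-beta is the main inducer of myofibroblasts. Of 49 genes of TGF-beta and BMP signalling, 7 were called lower (14.3%, against 5.4% of all genes) and 1 higher (2.04%, against 5.13%), with a median log2 fold change of -0.07, and 4 were called lower without replicate 2 or 4 of either group. Tgfb1, the ligand, was at 86.1, 85.8, 90.7 and 85.9 CPM in CD5L KO and at 79.6, 100.4, 86.5, 78.2 and 82.2 CPM in WT kidneys. The groups overlapped, and the log2 fold change was 0.03 (SE 0.0713, adjusted p = 0.843). Tgfbr2, the type II receptor, fell by 0.24 on the log2 scale (adjusted p = 0.0177), and Bambi, a decoy receptor that dampens the signal, was the member called higher, at 0.31 (adjusted p = 0.0319), a call lost in 6 of the 9 fits that left out 1 kidney. Ctgf, a secreted protein induced by TGF-beta and by stretch, fell by 0.68 on the log2 scale (adjusted p = 0.0104). Of 44 integrins and focal adhesion proteins, which tie cells to the matrix, 13 were called lower (29.5%) and none higher, and 8 without replicate 1 of CD5L KO. Vcl, the adhesion linker vinculin, fell by 0.64 and Itga9, a tenascin receptor, by 0.63 on the log2 scale. Itgb1, the most abundant integrin chain by CPM, was at 957 ± 18.8 CPM in CD5L KO and 971 ± 60.2 CPM in WT (SD, n = 4 and 5; adjusted p = 0.862).

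**Figure D2:**
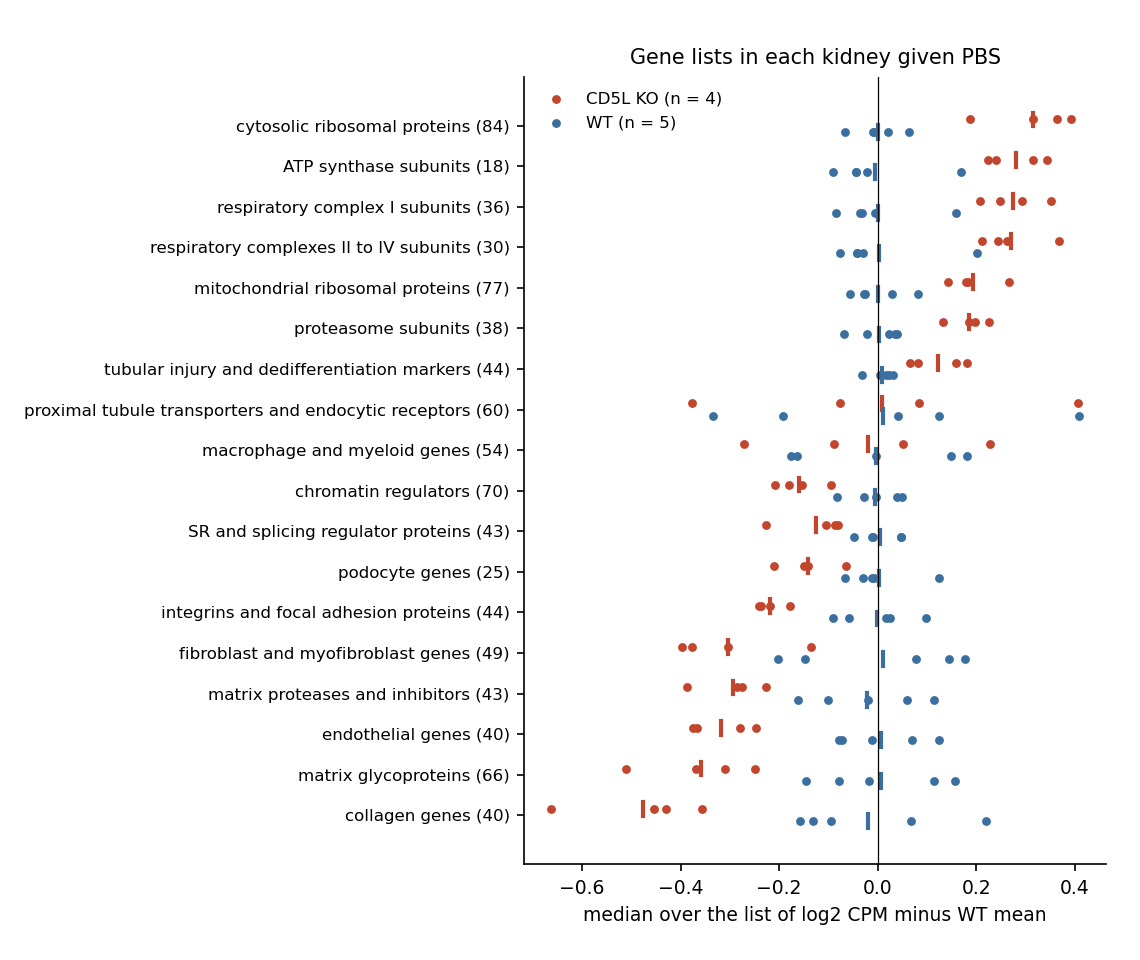
Median log2 difference from the WT mean over the genes of each list (horizontal axis) for each of the 4 CD5L KO and 5 WT kidneys given PBS, with 1 point per kidney and 1 row per list. The collagen medians ran from -0.66 to -0.36 in CD5L KO and from -0.16 to 0.22 in WT, and those of cytosolic ribosomal proteins from 0.19 to 0.39 and from -0.07 to 0.06.

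Endothelial genes also fell as a group. Of 40 tested, 19 were called lower and none higher, with a median log2 fold change of -0.32, and the median over the list lay between -0.38 and -0.25 in the CD5L KO kidneys and between -0.08 and 0.12 in WT kidneys. The summed level of the list was 2560 to 2851 CPM in CD5L KO and 3167 to 3622 CPM in WT kidneys. Aplnr, the apelin receptor of sprouting and venous endothelium, was at 40, 35.1, 35.9 and 32.7 CPM in CD5L KO and at 54.5, 55.3, 53.2, 60.1 and 55.1 CPM in WT kidneys. The gap between the groups was far larger than the spread within them, and Aplnr fell by 0.63 on the log2 scale (SE 0.0661, adjusted p = 0.00464). Robo4, which stabilises vessels, fell by 0.64, Thbd, the anticoagulant thrombomodulin, by 0.46, and Ptprb, the vascular phosphatase VE-PTP, by 0.46 on the log2 scale. The pan-endothelial adhesion genes Pecam1 (log2 fold change -0.38, adjusted p = 0.00652) and Cdh5 (-0.43, adjusted p = 0.011) fell too. Kdr, the VEGF receptor 2, was at 52.9 ± 8.95 CPM in CD5L KO and 65.6 ± 5.95 CPM in WT and did not pass (SD, n = 4 and 5; adjusted p = 0.0817). F2r, the thrombin receptor of vessels and stroma, fell by 0.47 on the log2 scale and was among the genes with the smallest p. The study's curated endothelial markers had 20 of 66 called lower and none higher. Of 25 podocyte genes, the cells of the glomerular filter, 4 were called lower and none higher, a count that was 2 without replicate 2 or 4 of CD5L KO and without replicate 4 of WT. They were Col4a3 of the glomerular basement membrane (log2 fold change -0.41), Npnt, a matrix ligand that binds the Itga8 integrin (-0.37), Robo2 (-0.33) and the podocyte transcription factor Wt1 (-0.30). Robo2 and Wt1 lost the call in 7 and 4 of the 9 fits that left out 1 kidney. Podxl, the podocyte sialoglycoprotein with the highest CPM in the list, was at 282 ± 29.4 CPM in CD5L KO and 327 ± 20.9 CPM in WT and did not pass (SD, n = 4 and 5; adjusted p = 0.0919).

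The 10 genes with the smallest p were 9 that fell and 1 that rose. Besides Aplnr, Robo4, Thbd, F2r and Itga8, those that fell were Angptl2, Peak1, Ano6 and Arid5b, and Nmrk1 rose. Angptl2, a secreted protein of vessels and stroma linked to inflammation, was at 104, 112, 103 and 106 CPM in CD5L KO and at 157, 149, 152, 179 and 151 CPM in WT kidneys. Ano6, the scramblase that exposes phosphatidylserine on the cell surface, was at 146, 141, 145 and 143 CPM in CD5L KO and at 182, 189, 184, 191 and 194 CPM in WT kidneys. In both, the CD5L KO kidneys lay close together and well below the WT kidneys, and the log2 fold changes were -0.57 and -0.39. Peak1, a pseudokinase of the cytoskeleton, fell by 0.61 and Arid5b, a DNA-binding cofactor of a histone demethylase, by 0.46 on the log2 scale. All 10 had an adjusted p of 0.00464.

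Cytosolic ribosomal protein genes were higher in CD5L KO as a group. Of 84 tested, 61 were called higher and none lower, against 5.13% of all genes, with a median log2 fold change of 0.32. These genes encode the protein part of the ribosome, and in mammals many of them begin transcription with a run of pyrimidines that places their mRNA under control of growth signals. In RefSeq start sites of the same genome build (GRCm38), a run of at least 5 C or T bases beginning with C at or within 1 base of the start was found in 20 of the 63 ribosomal protein genes with a window (31.7%), against 8.6% of the 12387 tested genes with a window. It was also found in 9 of 43 matrix glycoprotein genes (20.9%) and 3 of 25 endothelial genes (12%), lists with calls in the other direction. The following stretches around the start site show this run in capitals for the called genes with the smallest p that hold it.
Rps27l, chr9:66946056-66946116, plus strand: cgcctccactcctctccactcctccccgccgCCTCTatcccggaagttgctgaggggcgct
Rps18, chr17:33955635-33955695, minus strand: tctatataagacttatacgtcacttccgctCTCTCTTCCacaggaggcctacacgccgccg
Rps15a, chr7:118116117-118116177, minus strand: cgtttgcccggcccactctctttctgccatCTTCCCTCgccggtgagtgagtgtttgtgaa
Rpl34, chr3:130730368-130730428, minus strand: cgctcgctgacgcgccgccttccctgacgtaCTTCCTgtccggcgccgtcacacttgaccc

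These 4 genes were called higher at log2 fold changes of 0.32, 0.39, 0.39 and 0.35 in the order shown. The ribosomal protein gene with the smallest p was Rps7, a protein of the small subunit, at 756, 714, 793 and 686 CPM in CD5L KO and at 565, 568, 538, 505 and 521 CPM in WT kidneys. Each CD5L KO kidney exceeded each WT kidney, and the log2 fold change was 0.45 (SE 0.0614, adjusted p = 0.0047). Rpl23a and Rps25 rose by 0.44 and 0.37 on the log2 scale, and Rplp0, a stalk protein often used as a reference transcript, rose by 0.28 (adjusted p = 0.0122). Without replicate 1 of CD5L KO, 40 of the 84 were called higher and the median was 0.27. Of 67 translation factors, 12 were called higher and 3 lower. Eif3e, a subunit of the initiation factor that recruits the small ribosomal subunit, rose by 0.42 on the log2 scale (adjusted p = 0.00482), while Eif2ak3, the kinase PERK that slows initiation under stress of the endoplasmic reticulum, fell by 0.28. The higher count of translation factors was 6 without replicate 1 of CD5L KO and 7 without replicate 2 or replicate 4 of WT. Of 38 proteasome subunits, which degrade tagged proteins, 17 were called higher and none lower, among them the core subunits Psma3 (log2 fold change 0.29) and Psmb3 (0.36) and the base subunit Psmc6 (0.31).

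Genes of mitochondrial proteins were likewise higher. Of 77 mitochondrial ribosomal proteins, which translate the few proteins encoded in the mitochondrion, 28 were called higher and none lower, with a median log2 fold change of 0.20. The sequence CCGGAAG, the core recognised by ETS family factors, was found on either strand between 250 bases before and 50 after a start in 25 of the 68 mitochondrial ribosomal protein genes with a window (36.8%), in 25 of 63 cytosolic ones (39.7%) and in 17.5% of all tested genes with a window. It was found in 180 of 658 genes called higher (27.4%), in 107 of 713 called lower (15%) and in none of 33 collagen and 25 endothelial genes with a window. Among other lists with calls higher, it was in 35.7% of ATP synthase genes, 32.7% of translation factors, 32.3% of proteasome genes and 31.8% of genes of complexes II to IV with a window, but in 12.5% of complex I genes and 11.5% of the redox enzymes described below. The stretches below hold it in capitals, as CCGGAAG or its reverse complement, in 3 called mitochondrial ribosomal protein genes.
Mrpl48, chr7:100583129-100583189, minus strand: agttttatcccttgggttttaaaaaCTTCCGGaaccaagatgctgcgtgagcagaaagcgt
Mrpl27, chr11:94653711-94653771, plus strand: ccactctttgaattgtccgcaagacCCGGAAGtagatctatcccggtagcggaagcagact
Mrps16, chr14:20393441-20393491, minus strand: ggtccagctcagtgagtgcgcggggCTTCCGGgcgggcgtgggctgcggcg

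Mrpl48, Mrpl27 and Mrps16 rose by 0.30, 0.36 and 0.29 on the log2 scale. The mitochondrial ribosomal protein with the smallest p was Mrpl30, at 84, 80.9, 82.9 and 77.1 CPM in CD5L KO and at 63.1, 65.8, 64.3, 58.4 and 56 CPM in WT kidneys. All 4 CD5L KO kidneys lay above the WT kidneys (log2 fold change 0.40, SE 0.0592, adjusted p = 0.00497). The count called higher was 18 without replicate 1 of CD5L KO and 18 without replicate 4 of WT. In the respiratory chain, 19 of 36 subunits of complex I and 16 of 30 subunits of complexes II to IV were called higher and none lower, with median log2 fold changes of 0.28 and 0.29. Ndufv2, a subunit of the arm of complex I that takes electrons from NADH, was at 154, 149.8, 166 and 148 CPM in CD5L KO and at 111, 109, 132, 108 and 115 CPM in WT kidneys. The groups were apart although replicate 3 of WT stood above the other WT kidneys, and Ndufv2 rose by 0.42 on the log2 scale (adjusted p = 0.00553). The complex I count was 12 without replicate 2 of CD5L KO and 11 without replicate 2 of WT.

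The ATP synthase, which makes ATP from the proton gradient, had 12 of 18 subunits called higher and none lower (median log2 fold change 0.28). Its small subunit Atp5j2 was at 187, 191, 198 and 189 CPM in CD5L KO and at 145, 137, 163, 138 and 146 CPM in WT kidneys, and rose by 0.39 on the log2 scale (adjusted p = 0.00526). Its catalytic subunit Atp5b was at 1538 ± 142 CPM in CD5L KO and 1452 ± 132 CPM in WT and did not pass (SD, n = 4 and 5; adjusted p = 0.56). Among 12 mitochondrially encoded genes the values of all were above those of WT on average, but 2 were called. mt-Co1 of cytochrome oxidase rose by 0.41 (adjusted p = 0.0448), with overlap between the groups, and mt-Co3 by 0.45 (adjusted p = 0.0129) on the log2 scale. The count was 6 without replicate 3 of WT, 2 without replicate 1 of CD5L KO, 1 without any other kidney and 0 when gene length was allowed for. mt-Co1 lost the call in 7 of the 9 fits without 1 kidney, with adjusted p up to 0.106. The share of counts on the mitochondrial chromosome was 3.40 to 4.55% in CD5L KO and 2.76 to 3.87% in WT kidneys. Of 25 genes of the import machinery that carries nuclear-encoded proteins into mitochondria, 9 were called higher and 1 lower, with Tomm20 of the outer membrane receptor at a log2 fold change of 0.29. The higher count of the import machinery was 4 without replicate 1 or replicate 2 of CD5L KO, 4 without replicate 2 of WT and 5 without replicate 4 of WT. Of 24 TCA cycle enzymes, 6 were called higher and none lower, a count of 3 without replicate 2 or 3 of CD5L KO or replicate 2 or 4 of WT. Nmrk1, a kinase of the NAD salvage route from nicotinamide riboside, was at 58.8, 59.9, 54.7 and 65 CPM in CD5L KO and at 42.1, 38.3, 39.4, 36.8 and 43.2 CPM in WT kidneys. It rose by 0.58 on the log2 scale (adjusted p = 0.00464), with no overlap between groups, and was among the 10 genes with the smallest p.

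Other metabolic routes had between 0 and 3 calls in each direction, in lists of 8 to 39 genes, where 5.13% of all genes were called higher and 5.4% lower. Of 39 genes of fatty acid oxidation, 3 were called higher and 1 lower: Eci1 (log2 fold change 0.41), Hadhb (0.33) and Decr1 (0.29), enzymes of the mitochondrial spiral, rose, and Cpt1b, the carnitine transferase of muscle, fell by 1.96. Of 21 glycolysis enzymes, 2 rose, Ldhb at 0.33 and Pgk1 at 0.24, and 2 fell, Eno2 at -0.55 and Pfkp at -0.29. Pgk1 and Ldhb lost the call in 8 and 6 of the 9 fits that left out 1 kidney, and no glycolysis enzyme was called higher when gene length was allowed for. Of 25 enzymes of cholesterol synthesis, Msmo1 (0.42) and Fdft1 (0.24) rose and none fell. None of 8 gluconeogenesis enzymes was called by edgeR, 1 had an unadjusted p under 0.05 and DESeq2 called none.

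**Figure D3:**
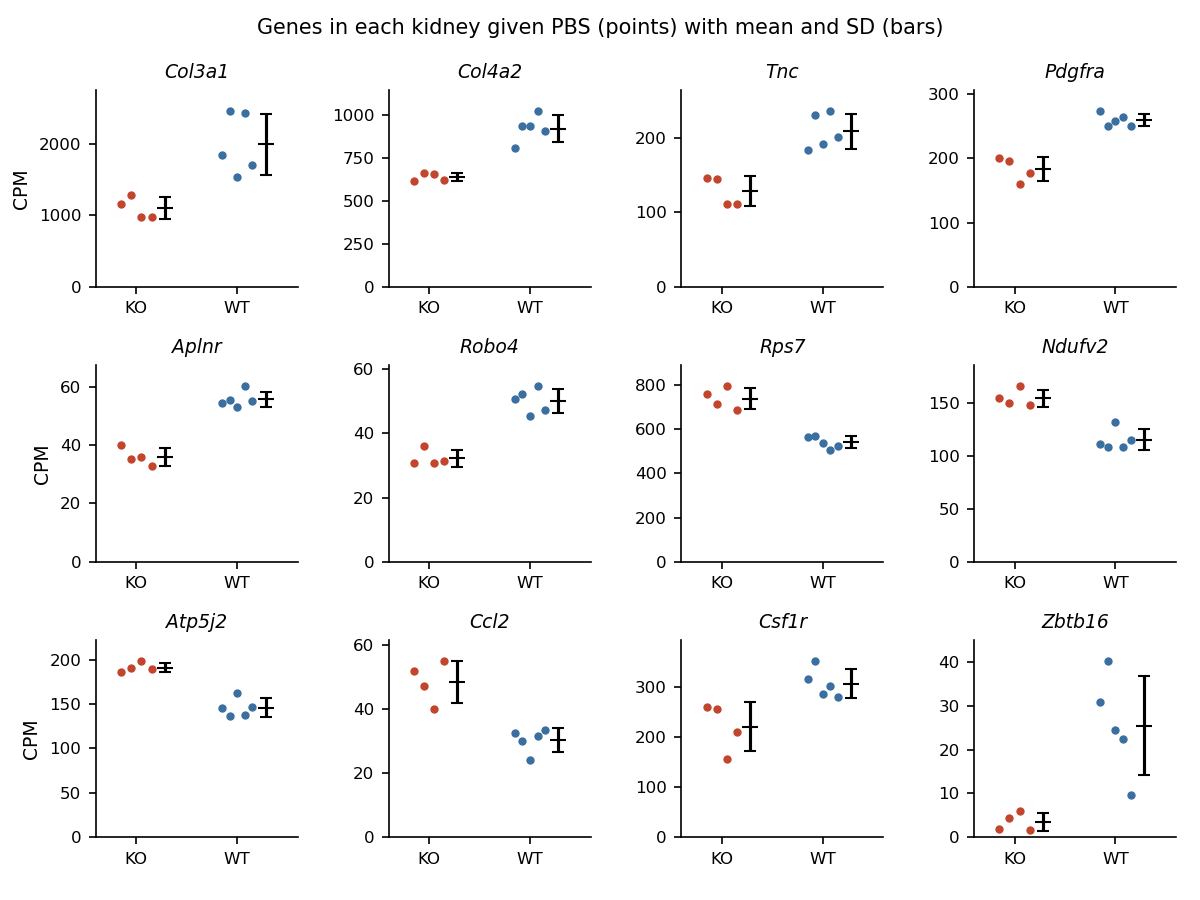
CPM of 12 genes (vertical axes, each starting at 0) in each CD5L KO (KO) and WT kidney given PBS, with 1 point per kidney, a dash at the mean and an error bar of 1 SD. The kidneys of the 2 groups do not overlap in any of the 12, with Zbtb16 lowest in CD5L KO relative to WT.

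Chromatin regulators were among the genes that fell. Of 70 chromatin regulators, 21 were called lower and none higher, with a median log2 fold change of -0.16. Med13l of the Mediator complex fell by 0.45, Kdm5c, a histone H3 lysine demethylase, by 0.38 and Chd2, a chromatin remodeller, by 0.32 on the log2 scale. This count depended on single kidneys: it was 9, 11, 8 and 13 without replicates 1, 2, 3 and 4 of CD5L KO and 11, 8 and 11 without replicates 2, 4 and 5 of WT, and 4 genes passed when gene length was allowed for. Of 43 SR proteins and splicing regulators, 7 were called lower and none higher. Srrm2, a large protein of nuclear speckles, was at 279, 276, 234 and 280.2 CPM in CD5L KO and at 342, 376, 327, 386 and 351 CPM in WT (log2 fold change -0.42, adjusted p = 0.0067). The core spliceosome was mixed, with 8 of 41 Sm, LSm and U2 proteins called higher and 4 lower, and the higher count was 5 without replicate 1 of CD5L KO. Its small proteins Snrnp27 (log2 fold change 0.43), Sf3b6 (0.38) and Snrpd2 (0.33) rose, while the U1 protein Snrnp70 (-0.37) and the U2 protein Sf3b3 (-0.35) fell. Immediate early genes, which respond within minutes to growth and stress signals, had 6 of 34 called lower and none higher. Nr4a3, an orphan nuclear receptor, was at 3.49 ± 1.0 CPM in CD5L KO and 7.65 ± 2.79 CPM in WT (SD, n = 4 and 5), Egr2 fell by 0.51 and Dusp6, a phosphatase that shuts off ERK, by 0.35 on the log2 scale. The immediate early count was 2 without replicate 1 and 3 without replicate 3 of CD5L KO, and 3 without replicate 4 of WT, and Nr4a3 lost the call in 4 of the 9 fits. The repressor Nr1d1 of the circadian clock fell by 0.53 on the log2 scale. In all, 2 of 19 clock genes were called, both lower (10.5%, against 10.5% of all genes called in either direction).

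Il6st and Osmr, receptor subunits for cytokines of the IL-6 family, were lower. Il6st, the shared subunit gp130, was at 305, 312, 314 and 322 CPM in CD5L KO and at 396, 409, 364, 429 and 443 CPM in WT kidneys, and fell by 0.38 on the log2 scale (SE 0.0623, adjusted p = 0.00591). Osmr, the oncostatin M receptor, fell by 0.39 (adjusted p = 0.00687). Neither gene overlapped between the groups. The list of inflammatory cytokines and the IL-1 pathway had 1 of 41 genes called higher and 3 lower, and Il1b itself was at 27.4, 30.3, 29.3 and 13.5 CPM in CD5L KO and at 22.4, 24.8, 21.4, 23.2 and 16.9 CPM in WT kidneys (adjusted p = 0.531). Of 39 genes of Toll-like receptor and NF-kB signalling, 4 fell (10.3%) and 1 rose (2.56%). Lbp, which hands bacterial lipid to CD14, fell by 0.42, the adaptor Traf6 by 0.33 and the kinase Ikbkb by 0.25 on the log2 scale, while Cd14, the receptor itself, rose by 0.23 (adjusted p = 0.0309). Ikbkb and Cd14 each lost the call in 5 of the 9 fits that left out 1 kidney. Of 30 complement genes, Cfi, the protease that inactivates C3b, was the only one called, at a log2 fold change of 0.48 (adjusted p = 0.015). C3 was at 1713 ± 154 CPM in CD5L KO and 1383 ± 265 CPM in WT and did not pass (SD, n = 4 and 5; adjusted p = 0.127).

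Of 54 macrophage and myeloid genes, 5 were called higher (9.26%) and 2 lower (3.7%), against 5.13% and 5.4% of all genes, with a median log2 fold change of -0.05 that was 0.05 without replicate 3 of CD5L KO and a higher count of 2 or 3 without replicate 1 or 2 of CD5L KO or replicate 1, 2 or 5 of WT. The 5 higher were Spp1, Cd14, Ccr2, Ly6c2 and Plac8, and the 2 lower were Csf1r and Mertk. The summed level of the list was 30240 to 35020 CPM in CD5L KO and 22580 to 27560 CPM in WT kidneys, most of it from Spp1, which tubules make as well. Adgre1, the macrophage marker F4/80, was at 140.0, 121, 64.9 and 98.7 CPM in CD5L KO and at 118, 134, 91, 93.5 and 102 CPM in WT kidneys. These values overlapped throughout, with a log2 fold change of -0.02 (adjusted p = 0.958). Csf1r, the receptor on which macrophages depend, was at 261, 257, 156 and 211 CPM in CD5L KO and at 316, 352, 286, 302 and 280.3 CPM in WT kidneys. Csf1r did not overlap between the groups and fell by 0.47 on the log2 scale (adjusted p = 0.0386), and Mertk, the receptor for dead cells, fell by 0.39 (adjusted p = 0.00575). Outside this list, Inpp5d, the blood-cell phosphatase SHIP1, fell by 0.66 on the log2 scale (adjusted p = 0.0047). The call of Csf1r was lost in 6 of the 9 fits that left out 1 kidney, with adjusted p up to 0.0986.

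Of 50 chemokines and receptors, 3 were called higher (6%, near the 5.13% of all genes) and 1 lower, and the higher count was 1 without replicate 1 of CD5L KO or replicate 4 of WT, 7 without replicate 3 of CD5L KO and 6 without replicate 1 of WT. Those called higher were Ccl2, Ccl7 and Ccr2. Ccl2, the main chemokine for monocytes, was at 51.8, 47.2, 39.8 and 54.8 CPM in CD5L KO and at 32.5, 30.1, 23.9, 31.6 and 33.5 CPM in WT kidneys. All CD5L KO kidneys were above all WT kidneys, at a log2 fold change of 0.67 (SE 0.108, adjusted p = 0.00566). Ccl7, which acts on the same receptor, rose by 0.93 (adjusted p = 0.0255), and the receptor Ccr2 by 0.45 (adjusted p = 0.0433) on the log2 scale. Ly6c2, a surface marker of inflammatory monocytes, was at 7.62 ± 1.62 CPM in CD5L KO and 5.13 ± 0.635 CPM in WT (SD, n = 4 and 5; adjusted p = 0.0402). Ccr2 and Ly6c2 were chosen after their values were seen, and they lost the call in 6 and 7 of the 9 fits without 1 kidney (adjusted p up to 0.106 and 0.125). Ccl7 lost it in 3 of them. Plac8 rose by 0.40 on the log2 scale, and Cx3cl1, the membrane-bound chemokine fractalkine, fell by 0.28. Of 33 scavenger receptors and relatives of CD5L, 6 were called lower and 1 higher. Stab1, a scavenger receptor of macrophages and sinusoidal endothelium, fell by 0.61 and Lrp1, a large endocytic receptor, by 0.53 on the log2 scale, while Cd36, a receptor for oxidised lipid, rose by 0.42 (adjusted p = 0.0191).

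Lists of other immune cells had no gene past the threshold in edgeR. None of 16 neutrophil genes was called, with 5 at an unadjusted p under 0.05 and 1 called by DESeq2, and none of 45 T and NK cell genes, with 3 unadjusted and 3 called by DESeq2. None of 21 dendritic cell genes (3 unadjusted, 0 by DESeq2), 26 B and plasma cell genes (0 and 0) and 28 MHC genes (1 and 0) was called. Of 55 interferon-stimulated genes, 1 was called lower, Lgals3bp at a log2 fold change of -0.46 (adjusted p = 0.013). S100a9, a neutrophil protein, was at 4.74 ± 0.532 CPM in CD5L KO and 5.62 ± 3.53 CPM in WT (SD, n = 4 and 5; adjusted p = 0.728). Of 47 genes of apoptosis, necroptosis and the p53 response none was called by edgeR, 8 had an unadjusted p under 0.05 and DESeq2 called 1. Ripk3, the necroptosis kinase, had a log2 fold change of -0.14 (adjusted p = 0.556). None of 56 mitosis and proliferation genes was called by edgeR, 11 had an unadjusted p under 0.05 and DESeq2 called 2.

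Few genes of differentiated tubules passed the test. Of 60 transporters and endocytic receptors of the proximal tubule, 1 was called higher and 1 lower, with a median log2 fold change of 0.01 that was -0.13 without replicate 3 of CD5L KO and 0.13 without replicate 3 of WT. Slc34a1, the phosphate transporter that marks intact proximal tubule, was at 466, 651, 937 and 785 CPM in CD5L KO and at 512, 626, 1123, 768 and 753 CPM in WT kidneys. Its spread within each group exceeded the difference between them (log2 fold change -0.09, SE 0.22, adjusted p = 0.835). Slc13a1, a sulphate transporter, rose by 0.44 (adjusted p = 0.0252), and Slc7a8, an amino acid exchanger, fell by 0.31 (adjusted p = 0.0216) on the log2 scale, and each lost the call in 4 of the 9 fits that left out 1 kidney. Among 44 markers of tubular injury and dedifferentiation, 5 were called higher (11.4%, against 5.13% of all genes) and 1 lower, with a median log2 fold change of 0.13. The list's median was 0.07 to 0.18 in the CD5L KO kidneys and -0.03 to 0.03 in WT kidneys. Spp1, osteopontin, a secreted protein of injured tubules and macrophages, was at 22880.3, 20982, 25622 and 20537 CPM in CD5L KO and at 14644, 15620.1, 17479, 12586 and 18479.6 CPM in WT kidneys. All CD5L KO kidneys were above the WT kidneys for Spp1 (log2 fold change 0.51, SE 0.111, adjusted p = 0.0143). S100a10 and Anxa1, membrane-binding proteins of injured cells, rose by 0.46 (adjusted p = 0.0047) and 0.32 (adjusted p = 0.0155) on the log2 scale. Vim, vimentin, which injured tubules and fibroblasts share, was the member called lower, at -0.42 (adjusted p = 0.0488), a call lost in 7 of the 9 fits without 1 kidney. Havcr1, the injury marker KIM-1, was at 627, 567, 752 and 768 CPM in CD5L KO and at 497, 580.0, 583, 435 and 623 CPM in WT kidneys, and did not pass (log2 fold change 0.32, adjusted p = 0.0962). In the distal nephron, 1 of 31 genes of the thick limb and distal convoluted tubule was called, Klk1, the protease kallikrein, which was at 337, 424, 274 and 582 CPM in CD5L KO and at 266, 184, 304, 238 and 229.9 CPM in WT kidneys (log2 fold change 0.73, adjusted p = 0.0313). Replicate 3 of CD5L KO lay within the WT range, and the call was lost in 5 of the 9 fits. Umod, uromodulin of the thick limb, was at 1888 ± 428 CPM in CD5L KO and 2013 ± 608 CPM in WT (SD, n = 4 and 5; adjusted p = 0.82). Of 23 principal cell genes, Tmem45b rose by 0.31 and Npnt fell, and of 22 intercalated cell genes the proton pump subunit Atp6v1g3 rose by 0.33 and the receptor Kit fell by 0.36 on the log2 scale. Tmem45b and Atp6v1g3 lost the call in 6 and 7 of the 9 fits.

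Lists of chaperones, lysosomal proteins and iron handling each had calls in both directions, where 5.13% of all genes were called higher and 5.4% lower. Of 35 genes of the unfolded protein response and heat shock, 4 rose (11.4%) and 3 fell (8.57%). The mitochondrial chaperone Hspe1 (log2 fold change 0.32), the small heat shock protein Hspb1 (0.35), Hsp90aa1 (0.29) and the disulphide isomerase Pdia6 (0.27) rose. Eif2ak3, Herpud1 of the degradation route from the endoplasmic reticulum (-0.34) and the chaperone Hyou1 (-0.28) fell. In the 9 fits that left out 1 kidney, Hspb1 and Hyou1 each lost the call in 7, Herpud1 in 6, Hsp90aa1 in 5 and Pdia6 in 3. Of 50 lysosomal proteins, 3 rose (6%), among them the membrane protein Lamp2 (0.27) and Cd63 (0.28), and 5 fell (10%), among them the hydrolases Gusb (-0.27) and Man2b1 (-0.23), whose calls were lost in 4 and 6 of the 9 fits. Of 38 genes of iron handling and ferroptosis, 3 rose and 3 fell (7.89% each), with Steap3, an endosomal iron reductase, at -0.46 and the iron and zinc importer Slc39a14 at -0.46, the call of the latter being lost in 7 of the 9 fits (adjusted p up to 0.113). Of 45 cytochrome P450 genes, Cyp4a12a rose by 1.13, and Cyp1b1 and Cyp2d22 fell by 0.39 and 0.42 on the log2 scale, a list with no more calls than the background and with Cyp4a12a lost in 4 of the 9 fits.

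Urothelial genes, which mark the lining of the renal pelvis, had a median log2 fold change of 0.62 with none of 18 called by edgeR, 9 at an unadjusted p under 0.05 and 3 called by DESeq2. Upk1b was at 35.5, 43.5, 34 and 61.2 CPM in CD5L KO and at 34.6, 30.5, 5.44, 30.2 and 31.5 CPM in WT kidneys, with replicate 3 of WT far below the rest (adjusted p = 0.233). The summed level of the 18 genes was 605 to 870 CPM in CD5L KO and 201 to 588 CPM in WT kidneys. The part that the amount of pelvis in each piece of tissue had in any result was not tested.

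Leaving aside called genes whose mean log2 CPM was under 1, the largest change was in Zbtb16, a transcription factor known to be induced by glucocorticoids. It was at 1.93, 4.45, 5.95 and 1.68 CPM in CD5L KO and at 30.9, 40.1, 24.5, 22.3 and 9.58 CPM in WT kidneys. The lowest WT kidney was above the highest CD5L KO kidney, and the log2 fold change was -2.86 (SE 0.426, adjusted p = 0.00497). Among 17 metallothioneins and glucocorticoid-induced genes, 3 were called lower and none higher (5 lower without replicate 3 of CD5L KO): besides Zbtb16 these were Glul, glutamine synthetase, which fell by 0.40, and Pdk4, the kinase that holds back pyruvate oxidation, which fell by 0.48 on the log2 scale and lost the call in 7 of the 9 fits that left out 1 kidney. Hif3a, a hypoxia-inducible factor subunit, was at 1.3 ± 0.244 CPM in CD5L KO and 3.7 ± 0.699 CPM in WT (SD, n = 4 and 5), a log2 fold change of -1.50 (adjusted p = 0.0048). Dio2, the enzyme that activates thyroid hormone, fell by 1.18 on the log2 scale (adjusted p = 0.0112), from values of 9.2 to 18.4 CPM in WT to 3.16 to 7.59 CPM in CD5L KO. Npy, a neuropeptide, Robo3, a guidance receptor, and Slc10a6, a steroid sulphate transporter, fell by 0.98, 0.92 and 1.07 on the log2 scale, with Slc10a6 lost in 6 of those fits.

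The largest rises at that level included the noncoding RNAs Rn7sk and CT010467.1 and the protein-coding Lars2, and were uneven among the CD5L KO kidneys. Rn7sk, the 7SK RNA that restrains the elongation factor P-TEFb, was at 55.6, 9.96, 14.1 and 10.1 CPM in CD5L KO and at 5.17, 3.11, 2.31, 3.95 and 5.14 CPM in WT kidneys (log2 fold change 2.51, adjusted p = 0.00987). CT010467.1, a gene model of nuclear ribosomal RNA, was at 3149, 696, 1239 and 769 CPM in CD5L KO and at 406, 330.2, 301, 378 and 602 CPM in WT kidneys. Lars2, a mitochondrial tRNA ligase, was at 683, 199, 291 and 193 CPM in CD5L KO and at 120.5, 127, 132, 158 and 178 CPM in WT. In all 3 of these, replicate 1 of CD5L KO was the highest by a wide margin and replicate 3 the next. Ribosomal RNA that remains in a library depends on how it was removed, and its part in these values was not tested.

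Some zinc finger genes of a cluster on chromosome 2 were also higher. From Stx16 to Fam217b (174.1 to 178.4 Mb in GRCm38), 11 of 39 genes tested were called (28.2%, against 10.5% of all genes), a region chosen after its values were seen. Of these, 7 were genes of the cluster, all higher, while of the unrelated neighbours Atp5e and Prelid3b were higher and Stx16 and Nelfcd lower, the latter calls each lost in 7 of the 9 fits without 1 kidney. Gm14326 was at 9.97, 11.3, 14.4 and 10.8 CPM in CD5L KO and at 6.48, 6.9, 6.26, 7.35 and 6.23 CPM in WT kidneys (log2 fold change 0.81, adjusted p = 0.00526). Gm14305, Gm14403, Gm14325, Gm14295 and Zfp970 had log2 fold changes of 0.87, 0.83, 0.73, 0.71 and 0.60, all with the highest value in replicate 3 of CD5L KO. These genes are closely similar copies of each other, so that counts can be split between them and each value is uncertain. In kidneys given rCD5L the log2 fold changes of the same 6 genes were 0.18, -0.07, -0.05, -0.15, -0.10 and -0.38. Without replicates 3 and 4 of CD5L KO given rCD5L, which stood apart, they were 0.59, 0.30, 0.37, 0.17, 0.39 and 0.17, in the same order.

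The study asks about redox control and ceramide. Of 28 peroxiredoxins, glutathione peroxidases, superoxide dismutases and thioredoxin system genes, 8 were called higher (28.6%, against 5.13% of all genes) and none lower, and 3 were when gene length was allowed for. Of 38 glutathione S-transferases and enzymes of glutathione turnover, 6 were called higher (15.8%) and none lower, and 1 was when gene length was allowed for. Gsta4, which detoxifies 4-hydroxynonenal, rose by 0.58 on the log2 scale (adjusted p = 0.0215). Gpx4, which removes lipid peroxides, rose by 0.41 (adjusted p = 0.0235, lost in 4 of the 9 fits without 1 kidney) and Mgst1, a membrane-bound glutathione transferase, by 0.46 (adjusted p = 0.00677) on the log2 scale. Of 41 core Nrf2 targets, 4 were called higher (9.76%) and none lower, with 3 higher and 2 lower when gene length was allowed for, and a count of 1 without replicate 2 and of 2 without replicate 4 of CD5L KO, and of 2 without replicate 2 or 4 of WT. Blvra, biliverdin reductase, rose by 0.38 on the log2 scale. The sequence TGACNNNGC, the core of the antioxidant response element, was in 11 of 34 of these Nrf2 genes with a window (32.4%) and in 16.7% of all tested genes with a window, over both strands. Of 42 enzymes and receptors of sphingolipid metabolism, 6 were called lower (14.3%, against 5.4% of all genes) and 1 higher, a lower count of 3 without replicate 1 or 2 of CD5L KO or replicate 2 or 4 of WT. Sphk1, which makes sphingosine 1-phosphate, fell by 0.49, its receptor S1pr3 by 0.38 and the ceramide kinase Cerk by 0.33 on the log2 scale, with Sphk1 lost in 5 of the 9 fits. The neutral sphingomyelinases Smpd2 (log2 fold change -0.03, adjusted p = 0.868) and Smpd3 (0.35, adjusted p = 0.456) did not pass.

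Called genes differed in length by direction. Gene length here is the length in bases deposited with the counts, not the span of the gene on the chromosome. The median gene length was 2563 bases among the 901 higher genes, 6732 bases among the 949 lower genes and 3808 bases over all genes tested. When the tested genes were put in 10 equal groups by length, the median log2 fold change in the shortest group (median 744 bases) was 0.18, with 181 genes called higher and 11 lower. In the longest group (median 11662 bases) it was -0.10, with 20 called higher and 283 lower. Within each kidney, Spearman's rho across genes between length and the difference from the WT mean was -0.26 to -0.18 in CD5L KO and -0.12 to 0.13 in WT kidneys, with no overlap. Across genes, which are not independent replicates, rho between length and the log2 fold change was -0.28 (n = 17579 genes).

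**Figure D4:**
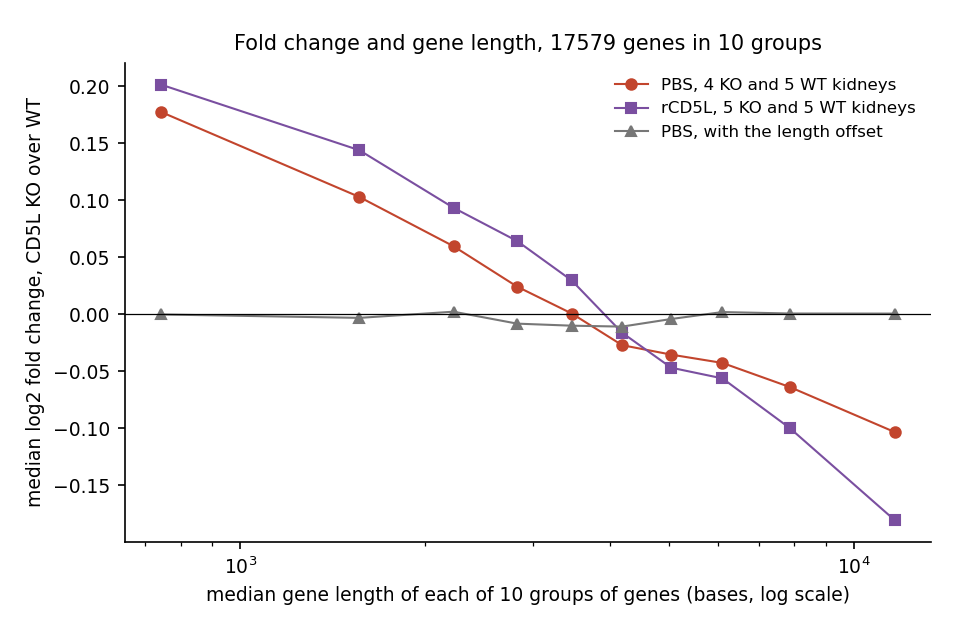
Median log2 fold change of CD5L KO over WT (vertical axis) in 10 equal groups of the tested genes ordered by gene length (horizontal axis, median length in bases, log scale), for kidneys given PBS, for kidneys given rCD5L and for PBS kidneys after a length offset. The PBS medians go from 0.18 in the shortest to -0.10 in the longest group, and those with the offset lie near 0 throughout.

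Genes of ribosomal and mitochondrial proteins are short by the deposited length, and those of chromatin regulators long. Each list was therefore also described after a smooth trend on length had been taken out of every kidney. With this offset 667 genes were called higher (3.79%) and 623 lower (3.54%), and 1064 of them were among the original calls, all in the same direction. Collagen genes kept most of the difference (median log2 fold change -0.44, 16 of 40 called lower), as did matrix glycoproteins (-0.30, 23 of 66) and endothelial genes (-0.30, 17 of 40). Cytosolic ribosomal proteins went to a median of 0.23 with 40 of 84 called higher, mitochondrial ribosomal proteins to 0.16 with 19 of 77 and the ATP synthase to 0.20 with 9 of 18. Complex I went to 0.15 with 8 of 36, complexes II to IV to 0.14 with 6 of 30 called higher and 1 lower, and the import machinery to 0.10 with 3 of 25 called higher. Chromatin regulators went to -0.07 with 4 of 70 called lower. Among the called genes were also 50 processed pseudogenes, intronless copies of mRNAs, of which 49 were higher and 14 were named after ribosomal proteins. Reads of parent genes can be counted on such copies, and this was not tested.

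Genes near Cd5l were counted apart, since alleles linked to a targeted gene can differ between lines. Whether they did here was not tested. Within 5 Mb of Cd5l on chromosome 3, 22 of 153 genes were called (14.4%), 10 higher and 12 lower, against 49 of 492 (9.96%) on chromosome 3 at more than 20 Mb. Within 1 Mb it was 3 of 36 genes. The 3 were Pear1, an endothelial and platelet receptor (log2 fold change -0.42), Mrpl24 of the mitochondrial ribosome (0.21) and Lrba, a vesicle protein (-0.25), the last losing the call in 5 and Mrpl24 in 3 of the 9 fits without 1 kidney. Fcrl1, the nearest gene tested, had a log2 fold change of -0.08 (adjusted p = 0.92). The count within 5 Mb was 12 without replicate 1 of CD5L KO, 12 without replicate 2 and 11 without replicate 4 of WT. Lrat, which esterifies retinol in stellate cells and eye, was in this window at 1.07 ± 0.362 CPM in CD5L KO and 0.341 ± 0.107 CPM in WT (SD, n = 4 and 5), a log2 fold change of 1.62 (adjusted p = 0.0136). Muc1 and Npr1 fell by 0.39 each and S100a1 rose by 0.39 on the log2 scale. Nuclear chromosomes had between 7.89% (chromosome 19) and 12.5% (chromosome 14) of their tested genes called.

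The same genotype difference was then read in the 10 kidneys given rCD5L, which share no animal with those given PBS. In 5 CD5L KO against 5 WT kidneys, none of 17360 genes passed in edgeR's test, 3090 had an unadjusted p under 0.05, and DESeq2 called 64. No gene passed without replicate 4 (2867 with an unadjusted p under 0.05) or without replicate 3 of CD5L KO (3562), the kidneys that stood apart. Without both, 644 of 18012 genes passed, 292 higher and 352 lower, and 351 of them were also called with PBS, all in the same direction. The test of whether the genotype difference itself changed with treatment called none of 18454 genes, with 1154 at an unadjusted p under 0.05, and again none without those 2 kidneys (928). Of the 1843 PBS calls tested in both pairs, 1701 (92.3%) had the same sign with rCD5L, against 67.6% of all 17163 genes tested in both, and without those 2 kidneys the shares were 96.8% and 71.8%. The genes called higher with PBS had a median log2 fold change of 0.31 there and 0.30 with rCD5L, and those called lower had -0.33 and -0.27. Both pairs shared the trend on gene length (rho -0.28 with rCD5L), so that agreement in sign includes it.

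**Figure D5:**
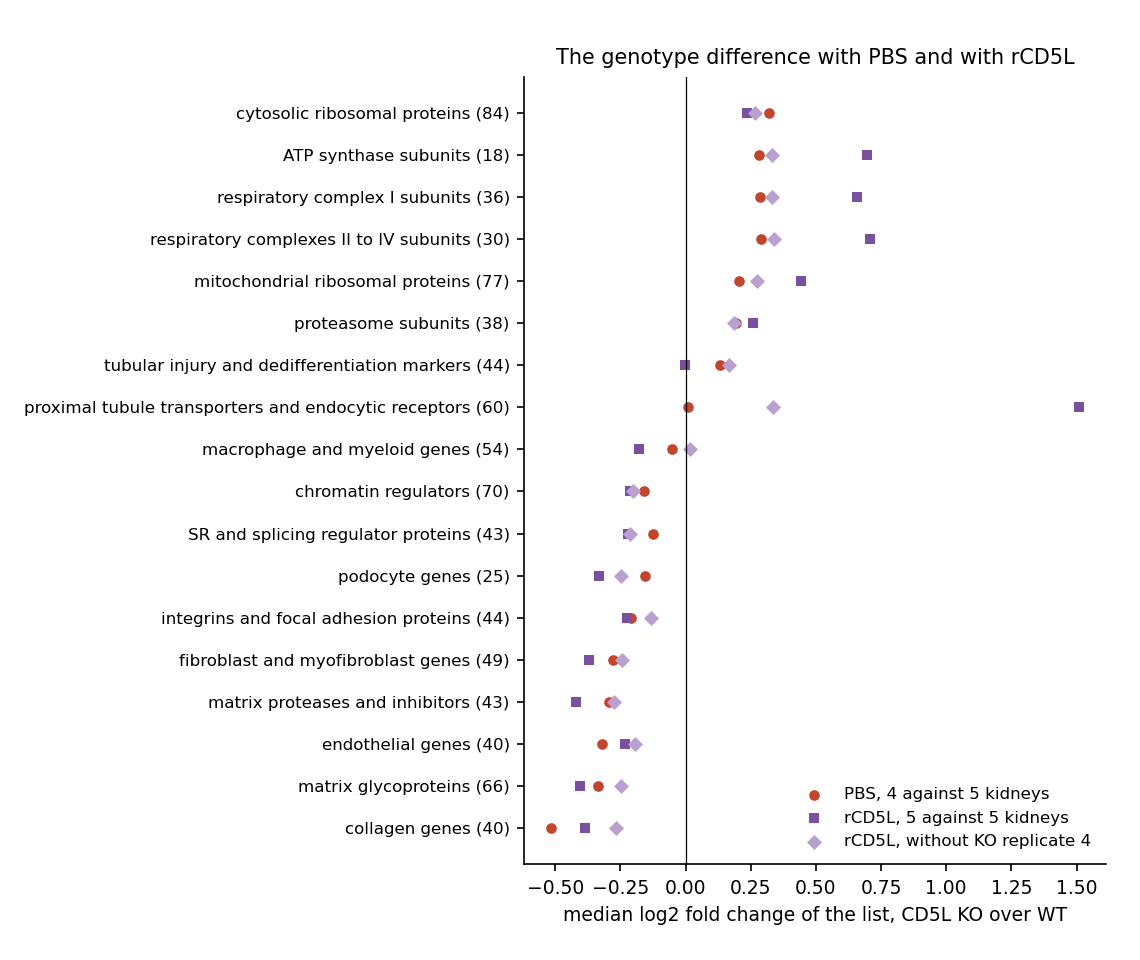
Median log2 fold change of CD5L KO over WT (horizontal axis) for each gene list (1 row per list, with the number of genes tested), for the kidneys given PBS, for those given rCD5L, and for the latter without replicate 4 of CD5L KO. Collagen genes lie at -0.52, -0.39 and -0.27 and complex I at 0.28, 0.66 and 0.33 in that order.

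Collagen genes had a median log2 fold change of -0.39 with rCD5L, matrix glycoproteins -0.40, the fibroblast list -0.37 and endothelial genes -0.23, and without replicate 4 these were -0.27, -0.25, -0.24 and -0.20. Without replicate 3 they were -0.62, -0.57, -0.40 and -0.29, and without both -0.48, -0.34, -0.22 and -0.26. Col3a1 was at -0.79 and Pdgfra at -0.85 on the same scale, at -0.57 and -0.67 without replicate 4, and at -0.76 and -0.55 without both. Cytosolic ribosomal proteins had a median of 0.24, mitochondrial ribosomal proteins 0.44 and complex I 0.66, against 0.27, 0.27 and 0.33 without replicate 4 and 0.15, 0.18 and 0.20 without both. The proximal tubule list, at 0.01 with PBS, was at 1.51 with rCD5L, at 0.34 without replicate 4 and at 0.13 without both. Some genes called with PBS had smaller or opposite values with rCD5L. Among them, Zbtb16 had a log2 fold change of -0.06, Hif3a -0.25, Glul 0.02, Ccl2 -0.01 and Ccr2 -0.30. Without both kidneys these were 0.25, -0.02, -0.25, 0.34 and 0.11, in the same order. In that fit Rn7sk was at 0.27, CT010467.1 at -0.03, Lars2 at -0.29, Anxa1 at -0.06 and Bambi at -0.05. The difference between treatments was not called for any of these genes.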

How the data were processed

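Whole obstructed kidneys were sequenced as random-primed libraries of total RNA with an RNA integrity number of at least 7. The authors trimmed reads with Trimmomatic, aligned them to GRCm38 (mm10) with HISAT2 and counted them with featureCounts, per the labels, and deposited a table of raw read counts per gene together with FPKM values, which divide counts by gene length and depth. Versions, the strand setting and the handling of multiply mapped reads are not given in the sources used here. Kidneys were grouped by their genotype and treatment labels, and the counts of the 4 CD5L KO and 5 WT kidneys given PBS were tested with edgeR 4.0.16 (TMM scaling, quasi-likelihood test, minimum count of 10 in its expression filter, Benjamini-Hochberg adjusted p under 0.05). CPM are counts per 1000000 of each library's total on genes that passed the filter, with that total multiplied by the TMM factor. No 2 libraries agreed within sampling noise (chi-square per degree of freedom 8.06 to 28.4), and the labels call the kidneys of a group biological replicates. The biological coefficient of variation was 12.6%. Alternatives were DESeq2 1.42.0, RLE scaling, other filters, limma 3.58.1 on the deposited FPKM (log2 with pseudocounts of 1 and 0.1), 1 fit over all 19 kidneys, a replicate block, a lowess offset on gene length (span 0.3) and leaving out each kidney. Gene lists (64, and 19 curated marker sets the study used to annotate single cells) are described by counts and medians without a set test. The genes named were Cd5l, the 12 largest rises and falls with no overlap, the 10 smallest p, called genes within 5 Mb of Cd5l, up to 4 called genes per list and direction with the list's most abundant gene, and genes the study names. Nnt, Ccr2, Ly6c2, type I collagen, Acta2, Fn1, Pecam1, Cdh5, Kdr, Upk1b, the noncoding RNAs, the chromosome 2 cluster and genes shown by sequence were added after their values were seen. The comparison, lists and genes were chosen with earlier results of these data known. Start-site windows came from RefSeq (GRCm38.p6), with 12387 tested genes matched. The test was tried on simulated counts first. The values of 1 gene, otherwise named by the rule above, are not reported here.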

Additional observations from a re-analysis of the deposited data

Results flagged for a closer look

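In 17 of 374 groups of kidneys, for 187 of the genes named, 1 kidney lay apart from the others of its group by Dixon's test. Chance alone gives about 1 in 20. In CD5L KO, replicate 3 was the one apart most often: Adamts4 was at 17.5 CPM (others 11.5 to 12.2), Tgfb1 at 90.7 (85.8 to 86.1), Gm14403 at 14.1 (8.42 to 9.34), Smpd2 at 57 (45.3 to 47.2) and Slc39a14 at 66.5 (44.6 to 46.9) above the others, and Srrm2 at 234 (276 to 280.2) and Osmr at 97.1 (116 to 118) below them. Replicate 1 of CD5L KO was apart in Rn7sk, at 55.6 CPM (others 9.96 to 14.1). Replicate 2 was apart in Acta2, at 356 CPM (others 231 to 249), and in Robo4, at 36.1 CPM (30.7 to 31.4). Replicate 4 was apart in the ribosomal protein genes Rps18, at 652 CPM (others 773 to 791), and Rps15a, at 425 CPM (494 to 504). In WT, replicate 1 was apart in Adipoq, at 16.5 CPM (others 4.53 to 6.56), replicate 3 in Ndufv2, at 132 CPM (others 108 to 115), and in Upk1b, at 5.44 CPM (30.2 to 34.6), and replicate 4 in S1pr3, at 66.6 CPM (53.5 to 54.6), and Angptl2, at 179 CPM (149 to 157). No gene passed the test of a difference in genotype effect between PBS and rCD5L.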

How the results depend on the processing

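None of the 167 called genes followed through these alternatives changed direction. Medians near 0 did: the proximal tubule list went from 0.00787 to -0.00783 with the gene length offset and to -0.016 and -0.0234 with FPKM, and ran from -0.13 to 0.14 without 1 kidney, the macrophage list went from -0.05 to 0.05 without replicate 3 of CD5L KO and to 0.00468 without replicate 2 of WT, and Nrf2 targets from 0.06 to -0.01 without replicate 3 of CD5L KO. The number of genes called was 1850 in the reported fit, 2570 with DESeq2, 12 with all 19 kidneys in 1 fit, 263 when a log2 fold change of at least 0.5 was also asked for, and 1015 to 2062 when 1 kidney was left out, with other settings between 1290 and 2132. The replicate block gave 2132, of which 1585 were shared. Same-numbered kidneys of the 2 groups had deviations correlated at 0.156, 0.0268, 0.158 and -0.0459. The highest correlation with a WT kidney of another number was 0.091, 0.0693, 0.0884 and 0.0511. The same number was thus the best match for replicates 1 and 3 only, and these values do not settle whether the numbers pair the samples. With the block, calls lower were 20 of 49 fibroblast, 8 of 25 podocyte and 8 of 54 macrophage genes, and calls higher were 10 of 44 injury markers, 7 of 50 chemokines and receptors and 9 of 12 mitochondrially encoded genes. DESeq2 called 20 integrin and focal adhesion genes, 11 splicing regulators and 31 of the study's endothelial markers lower, and 19 translation factors and 9 injury markers higher, and 64 genes in the kidneys given rCD5L, where 644 passed in edgeR without CD5L KO replicates 3 and 4. Without those 2 kidneys the joint fit gave 2291 in place of 12. Of genes within 5 Mb of Cd5l, 22 were called, against 0 over all 19 kidneys, 9 with the gene length offset, 0 in kidneys given rCD5L and 11 to 23 without 1 kidney. In the longest of 10 equal groups of genes by length, 283 were called lower, against 7 over all 19 kidneys, 95 with the offset and 160 to 316 without 1 kidney. The offset, which takes out a trend on length by construction, moved list medians beyond the spread between kidneys for integrins (-0.14), cytosolic ribosomal proteins (0.23), proteasome (0.12), complex I (0.15), complexes II to IV (0.14), import (0.10), chromatin regulators (-0.0699), spliceosomal proteins (0.0716) and injury markers (0.0753). FPKM with a pseudocount of 1 gave -0.25 for collagens, -0.19 for matrix proteases and -0.23 for the study's fibroblast markers, since a pseudocount shrinks low genes. Without 1 kidney the spliceosomal median ran from 0.0807 to 0.131 and that of injury markers from 0.0728 to 0.135. The 167 called genes followed did not include Frzb, Mcam, Nbas, Rab3gap2, Trio, Atp2b4, Zzef1 and Dynlt1-ps1, which passed over all 19 kidneys. Nor did they include Fabp4 and Hist1h2bc. Of the 167, 163 lost the call over all 19 kidneys, 35 with the offset, 23 and 22 with FPKM and 9 with the block, and DESeq2 kept 165 of 165. Leaving out 1 kidney lost 6 to 38 of them, 45 genes in at least 1 such fit and 20 in 6 or more, among these Bambi, Csf1r, Ccr2, Ly6c2, Ldhb, Pgk1, Hspb1, Hyou1, Atp6v1g3, Slc39a14, Pdk4, Vim and mt-Co1. The cause of these losses was not tested. Genes with the call lost under the offset included Col1a2, Tgfbr2, Rplp0, Csf1r, Ccl7, Ly6c2, Chd2, Vim, mt-Co1 and mt-Co3. Levels under about 1 CPM, such as Cd5l, rest on few reads.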

Other observations

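The 12 epididymis, 5 adrenal cortex, 7 skeletal muscle, 9 erythroid and 11 immunoglobulin constant genes tested had none called by edgeR, with 2, 0, 0, 0 and 1 at an unadjusted p under 0.05 and none called by DESeq2. Of 14 adipocyte genes, Fabp4, the lipid carrier of fat cells and capillary endothelium, was called higher at a log2 fold change of 0.49 (adjusted p = 0.0338). Of 13 replication-dependent histone genes tested, 1 was called higher, Hist1h2bc at 0.47, and of 30 kidney transcription factors 1 was called lower. Among the study's curated markers not described above, 1 of 49 proximal tubule markers was called higher, 1 of 59 macrophage markers higher and 6 lower, 8 of 55 podocyte markers lower and 1 of 23 urothelial markers higher. Acute-injury proximal tubule markers had 5 of 52 called higher and 1 lower, type B intercalated 4 of 29 higher and 2 lower, and type A 1 of 39 higher and 4 lower. Repairing proximal tubule markers (of 54) and lymphocyte markers (of 56) each had 1 higher and 3 lower, and thin limb markers (of 40) 3 lower. The remaining sets had at most 1 higher and 2 lower. Over all genes, 5.13% were called higher and 5.4% lower.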
